A study of Mus musculus with 2 samples.

Results

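The genes described here encode the aminoacyl-tRNA synthetases of the mouse. They were chosen by name, as the protein-coding genes whose symbol is a capital letter followed by ars, ars1 or ars2, together with Farsa, Farsb, Eprs, Ears2 and Mars1 and without Lars2. The rule goes by symbol and finds 36 of 21887 protein-coding genes. It was set, and Lars2 left out, with earlier results of these data known, so rankings among the members do not cover Lars2. Of the 36, 18 encode cytosolic enzymes, 16 mitochondrial enzymes, and 2 (Gars and Kars) enzymes that serve both compartments.

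H4K12la, lactylation of lysine 12 on histone H4, was mapped by CUT&Tag, in which an antibody guides a transposase to the marked chromatin. The cells were Neuro2a, an established line from a mouse neuroblastoma, grown on collagen in DMEM with fetal bovine serum. The control library came from cells given NaCl and the other library from cells given 25 mM lactate; duration is not given in the sources used here. There was 1 library per group, so no difference below has a replicate check and none was tested, and every interval covers counting error only.

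A synthetase joins an amino acid to its tRNA, and most amino acids have an enzyme of their own. The cytosol and the mitochondrion mostly use separate enzymes, and the mitochondrial ones are also encoded in the nucleus, made in the cytosol and imported. Several cytosolic synthetases sit in a large multisynthetase complex, and many cytosolic synthetase genes are known targets of ATF4, the transcription factor of the amino acid response. The alanyl-tRNA synthetases, products of Aars and Aars2, have also been reported to transfer lactate to lysine, which makes them of interest where a lactyl mark is mapped.

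Each library had its own list of peaks, 46592 in the control and 39768 with lactate. The lowest background recovered from the lists was 2.96 overlapping reads in the control and 3.06 with lactate, within 3.43% of each other. It is only an indirect guide to depth, which was not measured itself. The median background around the peaks was 3.32 reads in the control and 4.38 with lactate. Below, summit reads are the reads that overlap the highest point of a peak, and fold is the authors' ratio of the summit to the local background of the same library. The −log10 q is the authors' adjusted significance of a peak within its own library, where larger is stronger. No peak of either list had fewer than 11 summit reads, and where the local background was higher a peak needed more. An interval inside Gars with 23 lactate reads over a background of 9.96 had a −log10 q of 1.5, near the lowest value kept. A gene with no peak may thus still carry signal, and above 11 reads where its background is high. Of 16 markers of noradrenergic neuroblastoma cells or neurons, 4 had a peak within 1 kb of a gene end in the control and 6 with lactate, where 32.0% and 44.8% of all protein-coding genes had one. Isl1, a neuronal transcription factor, had 30 and 30 summit reads, Chgb, a secretory granule protein, 23 and 40, and Stmn2, a neuronal microtubule regulator, 14 and 18. Th and Dbh, enzymes of catecholamine synthesis, had no peak in either library. Of 12 markers of other cell types none had a peak in the control and 1, Mbp, with lactate. A peak does not measure expression.

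Peaks were common at the synthetase genes in both libraries. Within 1 kb of either annotated gene end, 24 of the 36 genes had a peak in the control and 32 with lactate, beside 32.0% and 44.8% of all protein-coding genes. Both libraries called 24 genes (28.6% of all genes), the lactate list alone 8 (16.2%) and the control alone none (3.34%). Neither library had a gene-end peak at Eprs, Aars2, Tars2 and Pars2, 4 of 36 beside 51.9% of all genes. Among genes called in either library the lactate list alone held 8 of 32 synthetase genes, which stands below the 33.6% found over all genes. In these bulk libraries, with 1 per group, more cells with the mark, more mark per cell and a difference between the libraries themselves cannot be told apart. The mitochondrial ribosomal protein genes, whose products also serve mitochondrial translation, had nearly the same shares: 51 of 78 in the control and 69 of 78 with lactate. The shares are thus not shown to be particular to the synthetases.

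**Figure D1:**
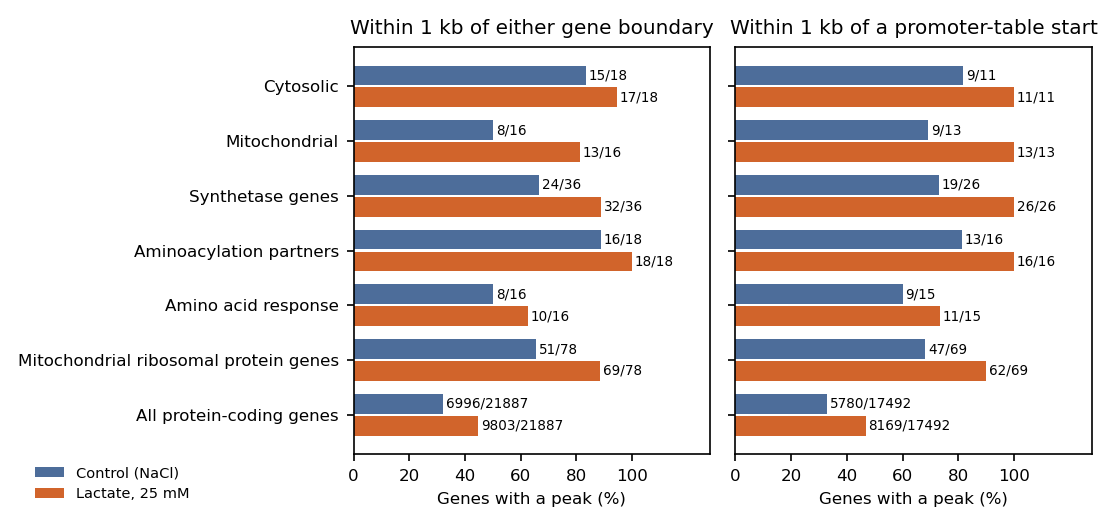
Percent of genes with an H4K12la peak within 1 kb of either annotated gene end (left) or of a start in the promoter table (right), for each library, with counts of genes beside the bars. The synthetase bars, 24 and 32 of 36 genes at gene ends, lie close to those of the mitochondrial ribosomal protein genes and above those of all protein-coding genes.

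The annotated end of a gene is not always where most of its transcripts begin. RefSeq promoter entries on GRCm38.p6, the assembly that mm10 names, matched 26 of the 36 genes; those without an entry included Rars, Wars, Vars, Hars, Hars2, Lars, Nars, Pars2 and Cars. Within 1 kb of such a start, all 26 genes had a lactate peak and 19 had a control peak, beside 46.7% and 33.0% of the 17492 protein-coding genes with an entry, and the 19 were called in both libraries (30.4%). The 3 genes Aars2, Eprs and Tars2, which lacked a gene-end peak, were among the 26. Their promoter starts lie 3317, 1627 and 1388 bp inside the annotated gene. The lactate library alone held 7 of these starts (16.4% of all genes with an entry), those of Aars2, Farsa, Kars, Mars2, Qars, Sars2 and Vars2, and the control alone held none (2.69%).

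The peaks were centred close to the start. Taking the peak with the highest fold at each start, the summit lay within 250 bp of it for 19 of 19 genes in the control and 23 of 26 with lactate, beside 70.1% and 72.4% of all genes called at a start. The median summit stood 79 bp inside the gene in the control and 80.5 bp with lactate. The 3 lactate exceptions were Vars2 at 414 bp, Mars2 at 776 bp and Sars at 1134 bp. Sars, which charges serine tRNA, had 3 separate intervals in each library at nearly the same places, and the highest fold was at the interval on the start in the control and at the farthest with lactate.

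**Figure D2:**
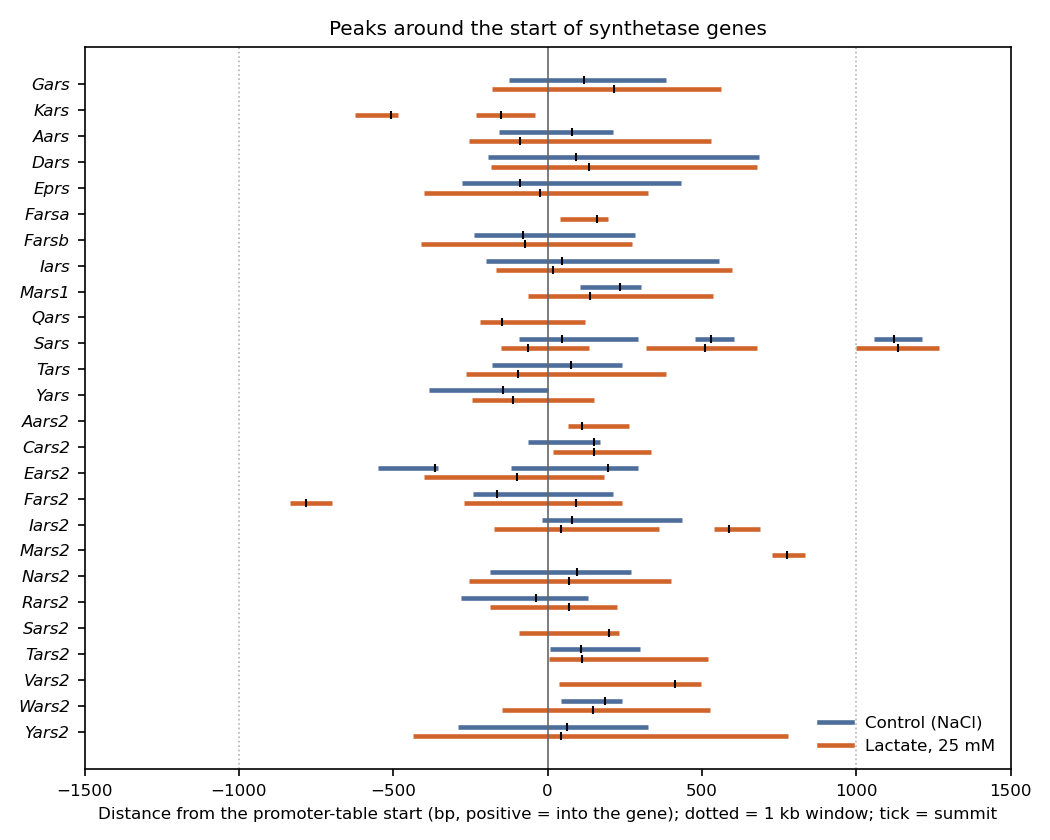
Deposited peak intervals around the promoter-table start of 26 synthetase genes, as distance in bp with positive values inside the gene; thick lines are peaks of the control and lactate libraries, ticks their summits and dotted lines the 1 kb window. Intervals of both libraries overlap at the 19 starts called in both, and 7 genes have a lactate interval alone.

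The promoters of the 26 genes with an entry were read for 8 short motifs, on both strands. The stretch read was the 250 bases before and the first 50 bases after each start, and parts of it lay outside any peak. The word TGATGNAA, the core of the amino acid response element that ATF4 and its partners bind, was found in 5 of the 26 genes (Aars, Gars, Iars, Tars and Yars) and in 4.13% of all 17492 genes with an entry. It was in 4 of the 11 cytosolic genes with an entry, in Gars, which serves both compartments, and in none of the 13 mitochondrial genes with an entry. The difference between the classes was not tested, and genes without an entry were not read. Counting from the start, the word began at base -112 and base 10 in Aars, -30 in Gars, 8 in Iars, -15 in Tars and 4 in Yars. Of these 6 words, 5 lay inside a control peak and 6 inside a lactate peak. Both libraries called all 5 genes at the start, beside 19 of the 26 members and 30.4% of all genes with an entry. How often other stretches of promoters lay inside a peak was not counted, for this word or for those below. A match describes the letters and does not show that a factor was bound.

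Other words were spread differently. CACGTG, the E-box read by MYC, was in 5 genes (8.91% of all genes), namely Aars, Ears2, Farsb, Iars and Tars, and each lay inside a peak of both libraries. CCGGAAG, the ETS core, was in 9 genes (12.9% of all). Of the 9 ETS words, 3 lay inside a control peak and 4 inside a lactate peak. The genes Farsa, Kars, Mars2 and Sars2, each called at the start in the lactate list alone, were among the 9, and none of their ETS words lay inside a peak. AAGATGGCG, a YY1 word, was in Aars2, Farsa, Wars2 and Yars2 (2.14% of all), and GCGCATGCG, an NRF1 word, was in Vars2 and Wars2 (2.61%). GGGCGG, the SP1 box, was in 18 genes (49.2% of all), CCAAT, the NFY box, in 13 (42.3%) and TATAAA, the TATA box, in 3 (14.8%). No words of different motifs overlapped in a synthetase promoter, while 2 of the SP1 words of Yars, at -212 and -207, share a base. Median GC content was 57.3% both for the 26 genes and for all genes, and the median number of CG pairs per promoter was 18 and 15.

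The 250 bases before the start of Aars, Gars and Tars are given to show the amino acid response word in capitals, in genes whose peaks of both libraries cover it. In all 3 the word lies on the opposite strand, so the capitals are its reverse complement. They are RefSeq sequence of GRCm38.p6, 5′ to 3′ on the strand of the gene. Aars is chr8:111033592-111033841 on the plus strand, Gars chr6:55037751-55038000 on the plus strand and Tars chr15:11399659-11399908 on the minus strand.
Aars: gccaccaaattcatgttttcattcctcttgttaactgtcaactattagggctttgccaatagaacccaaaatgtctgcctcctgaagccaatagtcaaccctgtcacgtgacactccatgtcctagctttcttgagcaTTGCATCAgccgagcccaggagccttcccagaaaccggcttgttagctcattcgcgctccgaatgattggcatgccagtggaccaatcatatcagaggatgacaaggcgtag
Gars: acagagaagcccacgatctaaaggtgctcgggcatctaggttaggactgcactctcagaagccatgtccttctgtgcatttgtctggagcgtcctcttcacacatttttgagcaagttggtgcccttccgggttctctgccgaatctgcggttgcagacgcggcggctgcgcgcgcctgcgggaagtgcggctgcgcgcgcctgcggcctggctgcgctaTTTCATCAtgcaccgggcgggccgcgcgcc
Tars: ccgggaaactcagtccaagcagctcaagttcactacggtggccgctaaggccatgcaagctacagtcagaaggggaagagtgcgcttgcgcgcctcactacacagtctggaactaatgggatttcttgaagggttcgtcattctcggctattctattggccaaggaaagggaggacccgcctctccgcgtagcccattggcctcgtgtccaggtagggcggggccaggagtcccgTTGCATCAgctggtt

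Aars2, Farsa and Vars2 are given as starts called in the lactate list alone. Their lactate peaks lie inside the gene, past the start, so none of the printed bases lies in a peak of either library. Aars2 is chr17:45506582-45506831 on the plus strand, with none of the words in capitals. Farsa is chr8:84856736-84856985 on the plus strand, with the ETS core in capitals on the opposite strand. Vars2 is chr17:35667593-35667842 on the minus strand, with both NRF1 words in capitals, also on the opposite strand.
Aars2: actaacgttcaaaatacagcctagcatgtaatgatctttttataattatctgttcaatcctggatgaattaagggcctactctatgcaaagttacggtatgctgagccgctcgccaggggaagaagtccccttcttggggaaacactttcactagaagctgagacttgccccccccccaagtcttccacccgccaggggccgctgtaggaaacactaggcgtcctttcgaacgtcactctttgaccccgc
Farsa: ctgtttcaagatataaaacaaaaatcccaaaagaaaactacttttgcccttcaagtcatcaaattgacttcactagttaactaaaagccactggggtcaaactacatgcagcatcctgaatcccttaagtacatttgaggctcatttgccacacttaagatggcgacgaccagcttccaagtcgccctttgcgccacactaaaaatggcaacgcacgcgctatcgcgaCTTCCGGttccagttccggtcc
Vars2: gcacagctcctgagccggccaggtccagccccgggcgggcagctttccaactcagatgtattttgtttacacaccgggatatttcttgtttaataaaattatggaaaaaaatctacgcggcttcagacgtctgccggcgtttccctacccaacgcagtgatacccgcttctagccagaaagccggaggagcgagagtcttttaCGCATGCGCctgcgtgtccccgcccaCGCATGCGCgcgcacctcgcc

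Aars, the cytosolic alanyl-tRNA synthetase, carried peaks in both libraries at several places. At the promoter start the control had 21 summit reads (95% interval 13.0 to 32.1) at chromosome 8, 111033684 to 111034053, and the lactate library 30 reads (20.2 to 42.8) at 111033589 to 111034372. The intervals of the counts overlapped, and fold was 3.48 in the control and 2.87 with lactate, with a local background of 5.32 reads against 9.82 reads. A further peak lay about the annotated 5′ boundary, 6064 bp before the promoter start, with 17 reads in the control (9.90 to 27.2) and 23 with lactate (14.6 to 34.5). Beyond the far end the lactate list alone had 37 reads (26.1 to 51.0) at a place that is also an end of Exosc6, an RNA exosome gene. The control alone had 20 reads (12.2 to 30.9) inside the gene, 13165 bp from the start. The −log10 q at the promoter start was 3.97 in the control and 4.16 with lactate, where the lowest value in either list was 1.30.

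Aars2, the mitochondrial alanyl-tRNA synthetase, had 1 peak of few summit reads in each library. The lactate library had a single peak of 16 summit reads (9.15 to 26), 113 bp inside the promoter start at chromosome 17, 45506898 to 45507095, with a fold of 3.71 and a −log10 q of 3.60. The control had no peak there and a single peak of 11 reads (5.49 to 19.7) at 45516705 to 45516829, 9929 bp from the start, which is the lowest summit in either list. The intervals of these 2 counts overlap, and the peaks are at different places. Aars thus had 3 peaks and Aars2 had 1 in each library, at places that matched between the libraries only at the start and the 5′ boundary of Aars.

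**Figure D3:**
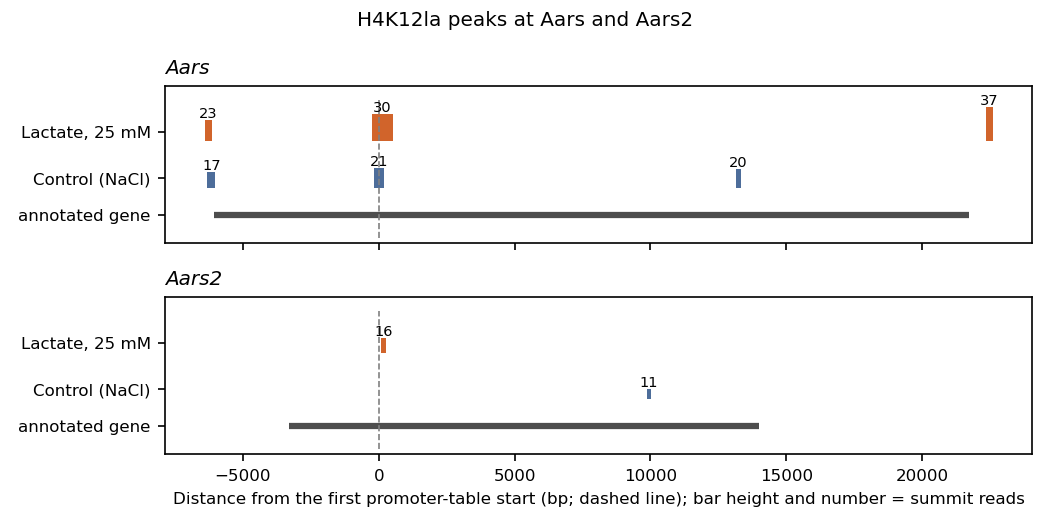
Peaks of each library along Aars and Aars2, as distance in bp from the first promoter-table start (dashed line); bar height and the number above it are summit reads, and the thick line is the annotated gene. Aars has 21 control and 30 lactate reads at its start, and Aars2 has 16 lactate reads there and no control peak.

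The cytosolic genes were called in 15 of 18 cases in the control and 17 of 18 with lactate, and Eprs, the remaining gene, had a peak of both libraries at its promoter start. Eprs encodes the fused glutamyl- and prolyl-tRNA synthetase of the multisynthetase complex. It held the highest summit counts of all members at a start, 37 reads in the control (26.1 to 51.0) and 43 with lactate (31.1 to 57.9), with folds of 4.80 and 4.10. Dars, the aspartyl enzyme, had 23 control reads (14.6 to 34.5; fold 6.00, −log10 q 9.48) at chromosome 1, 128416732 to 128417610, and 27 lactate reads (17.8 to 39.3; fold 4.17, −log10 q 7.04). Farsb, the beta subunit of the phenylalanyl enzyme, had the same control count of 23 reads with the same fold of 6.00, at chromosome 1, 78488613 to 78489135. Its lactate peak had 30 reads (20.2 to 42.8), a fold of 4.81 and a −log10 q of 9.41. Dars and Farsb thus had the highest control folds of all members, and with lactate both folds were lower while both counts were higher.

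Tars, the threonyl enzyme, had the highest lactate fold of the members, 6.49, and the highest −log10 q, 15.7. Its lactate peak at chromosome 15, 11399274 to 11399921, had 36 summit reads (25.2 to 49.8). The control peak at 11399416 to 11399839 had 22 reads (13.8 to 33.3), with a fold of 5.81 and a −log10 q of 8.75. Lars, the leucyl enzyme of the complex, had 15 control reads (8.40 to 24.7; fold 4.04) and 26 lactate reads (17.0 to 38.1; fold 5.27, −log10 q 9.20) at the higher-coordinate end, the lactate peak at chromosome 18, 42261924 to 42262285. For both genes the count intervals of the libraries overlapped.

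Across the whole cytosolic class, those described above included, the counts ranged as follows. In the control the best gene-end peaks of the 15 cytosolic genes had 13 to 24 summit reads (median 20), from Qars to Mars1, the methionyl enzyme. In the lactate library those of the 17 called genes had 14 to 36 reads (median 27), from Cars to Tars. Iars, for isoleucine, had 23 and 32 reads, and Yars, for tyrosine, 20 and 29 reads. Rars, for arginine, had 20 and 28 reads, and Nars, for asparagine, 17 and 22. Qars, for glutamine, was called in the control only through a peak of 13 reads beyond its far end, at an end of Qrich1, where the lactate library had 26. At the start of Qars the lactate library had 18 reads (10.7 to 28.4) and the control no peak. Of the 8 genes of the multisynthetase complex, 6 were called at a gene end in the control (32.0% of all genes) and 7 with lactate (44.8%).

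Hars and Hars2, the cytosolic and mitochondrial histidyl enzymes, lie head to head and share a single peak in each library. Its summit held 16 reads in the control (9.15 to 26) and 27 with lactate (17.8 to 39.3). It is 1 measurement, but it enters the main counts at gene ends under both names. Neither gene has a promoter entry, so the peak enters no count at promoter starts.

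At gene ends, 8 of 16 mitochondrial genes were called in the control and 13 of 16 with lactate, beside 15 and 17 of the 18 cytosolic genes and 32.0% and 44.8% of all genes. At promoter starts the control called 9 of 13 mitochondrial and 9 of 11 cytosolic genes (33.0% of all genes), and the lactate library all of both (46.7%). The difference between the classes was not tested. Where both libraries called a mitochondrial gene at an end, the median summit was 18 reads in the control and 33 with lactate, against 20 and 27 for the cytosolic genes. Median fold was 4.02 and 4.59 for the mitochondrial genes and 4.09 and 4.03 for the cytosolic genes. Over all genes called at an end in both libraries the medians were 17 and 26 reads, with folds of 3.83 and 3.98. The mitochondrial medians rest on 8 genes, and for 5 of them the control peak also lay at an end of another gene.

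Several mitochondrial genes with high folds had peaks at their starts in both libraries. Nars2, for asparagine, had 20 control reads (12.2 to 30.9; fold 5.31, −log10 q 7.15) at chromosome 7, 96951342 to 96951796, and 31 lactate reads (21.1 to 44.0; fold 5.69, −log10 q 11.8). Yars2, for tyrosine, had 23 control reads (14.6 to 34.5; fold 5.11, −log10 q 7.75) at chromosome 16, 16302675 to 16303290, and 39 lactate reads (27.7 to 53.3; fold 4.77, −log10 q 12.04) in an interval of 1215 bp. Fars2, for phenylalanine, had 14 control reads (7.65 to 23.5; fold 3.79) and 29 lactate reads (19.4 to 41.6; fold 5.30, −log10 q 10.2), the lactate peak at chromosome 13, 36117371 to 36117883. Rars2, for arginine, had 20 and 33 reads, and the lactate −log10 q was 11.2. These 3 lactate peaks and that of Rars2, with that of Tars, were the 5 gene-end peaks of members that reached a −log10 q of 10 with lactate (5.13% of all genes), where no gene-end peak of a member reached it in the control (0.959%). The Eprs start peaks, outside the gene-end windows, reached 11.4 and 10.9.

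Ears2 and Cars2 were the 2 members whose count intervals did not overlap between the libraries, of 24 called in both, beside 2.31% of all genes called in both at gene ends and 2.32% at promoter starts. Ears2, the mitochondrial glutamyl enzyme, had 15 control reads (8.40 to 24.7) and 37 lactate reads (26.1 to 51.0) at its start, where an end of Ubfd1 also lies. The control summit lay 196 bp inside the start and the lactate summit 99 bp before it. A second control peak, of 14 reads (7.65 to 23.5), also overlapped the lactate interval. Cars2, the mitochondrial cysteinyl enzyme, had 13 control reads (6.92 to 22.2) and 33 lactate reads (22.7 to 46.3), with both summits 149 bp inside the start. Local background differed in the same direction, 3.86 against 8.32 reads at Ears2 and 3.48 against 8.10 reads at Cars2. Fold was 3.29 and 4.08 at Ears2 and 3.12 and 3.74 at Cars2.

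**Figure D4:**
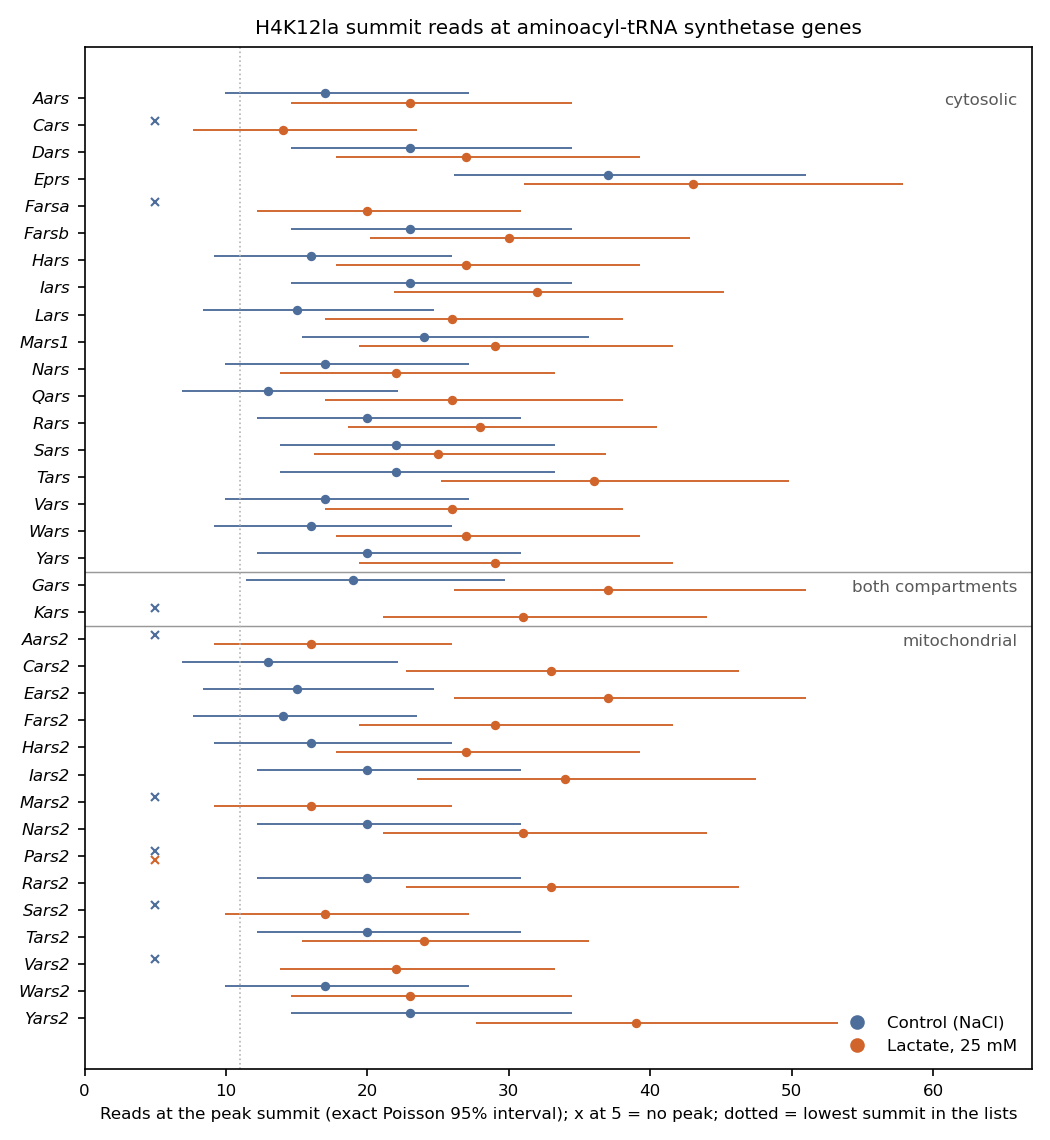
Summit reads with exact Poisson 95% intervals for the synthetase genes reported by name, in each library, for the peak with the highest fold at a gene end or promoter start; crosses mark genes with no such peak and the dotted line the lowest summit in either list, 11 reads. Lactate counts stand above control counts at every plotted gene with a peak in both libraries, with Sars and Vars read at different places in each, while the intervals overlap at all of these but Cars2 and Ears2.

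Of the enzymes that serve both compartments, Gars, for glycine, had 19 control reads (11.4 to 29.7) and 37 lactate reads (26.1 to 51.0) at its start, with folds of 3.14 and 3.81. Kars, for lysine, had no control peak within 1 kb of either end. Its lactate peaks had 24 reads (15.4 to 35.7; fold 2.89, −log10 q 3.34) 151 bp before the start, at chromosome 8, 112011394 to 112011587, 21 reads (13.0 to 32.1; fold 2.56, −log10 q 2.15) with the summit at -506 bp from the start, and 31 reads (21.1 to 44.0; fold 3.40, −log10 q 5.90) beyond the far end, at 111992147 to 111992462. Ends of Terf2ip and Adat1 lie at these places. The control had a peak of 18 reads (10.7 to 28.4) at 111992127 to 111992316, which overlaps the far-end lactate peak but lies 1123 bp from the gene end, so the far-end difference is set by the window edge.

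The 8 genes called at a gene end in the lactate list alone included Cars, Farsa, Kars, Mars2, Sars2, Vars2 and Wars2. Wars2, the mitochondrial tryptophanyl enzyme, had 23 lactate reads (14.6 to 34.5; fold 5.48, −log10 q 8.63) at chromosome 3, 99140942 to 99141615. The control had 17 reads (9.90 to 27.2; fold 4.55) at 99141133 to 99141330, inside the lactate interval but past the 1 kb window, so Wars2 was marked in both libraries at its promoter start. Farsa, the alpha subunit of the phenylalanyl enzyme, had 20 lactate reads (12.2 to 30.9; fold 3.07, −log10 q 3.13) at chromosome 8, 84857026 to 84857183. Cars, the cytosolic cysteinyl enzyme, had 2 separate lactate peaks of 14 reads each (7.65 to 23.5; fold 3.69, −log10 q 3.16) at chromosome 7, 143599681 to 143599789 and 143599955 to 143600133.

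At Wars2 and Kars the best lactate peak overlapped a control peak outside the window. At Cars, Farsa, Mars2, Sars2 and Vars2 the nearest control peak lay 4537 bp (Sars2) to 50321 bp (Cars) from the best lactate peak.

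Vars2, Sars2 and Mars2 encode mitochondrial enzymes. Vars2, for valine, had 22 lactate reads (13.8 to 33.3; fold 3.30, −log10 q 3.97) at chromosome 17, 35667095 to 35667556. Sars2, for serine, had 17 reads (9.90 to 27.2; fold 2.87, −log10 q 2.26) at chromosome 7, 28741877 to 28742198, at a place shared with the mitochondrial ribosomal protein gene Mrps12. Mars2, for methionine, had 16 reads (9.15 to 26.0; fold 2.79, −log10 q 2.0) at chromosome 1, 55237904 to 55238012. Of the 8 genes, Wars2 and Kars reached a −log10 q of 5 with lactate. Over all 36 members 10 reached it in the control and 23 with lactate, beside 8.54% and 24.1% of all genes. None of the 7 starts called in the lactate list alone reached it. Those 7 peaks had 16 to 24 summit reads and a −log10 q of 2.0 to 3.97.

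At nearly all places marked in both libraries the lactate count was the higher one. Taking the promoter start, or the gene ends where there is no promoter entry, 26 members were called in both libraries, and summit reads and local background were higher with lactate at the peak of highest fold for 26 of 26. With the peak shared by Hars and Hars2 taken once, these are 25 measurements. The compared peaks overlapped at 24 of the 26 genes, and at Sars and Vars they lay at different places, for Vars at opposite ends of the gene. Counting each overlapping pair of intervals at a member's gene ends or start, the lactate count was higher in 27 of 28. The exception was the interval on the start of Sars, with 22 control reads (13.8 to 33.3) and 19 lactate reads (11.4 to 29.7). Over all genes called at a gene end in both libraries, counts were higher with lactate at 94.5% and local background at 97.6%, and at promoter starts the shares were 95.6% and 98.4%, so neither is shown to be particular to the synthetases. Fold was lower with lactate at 12 of the 26 and higher at 14, beside 47.4% lower at gene ends and 47.2% at promoter starts over all genes. By class, fold was lower at 10 of 15 cytosolic and 2 of 10 mitochondrial genes. At the gene ends called in both, the median local background of the members was 3.59 reads in the control and 6.33 with lactate, and over all genes it was 3.36 and 5.84. The part of background in the counts was not tested.

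**Figure D5:**
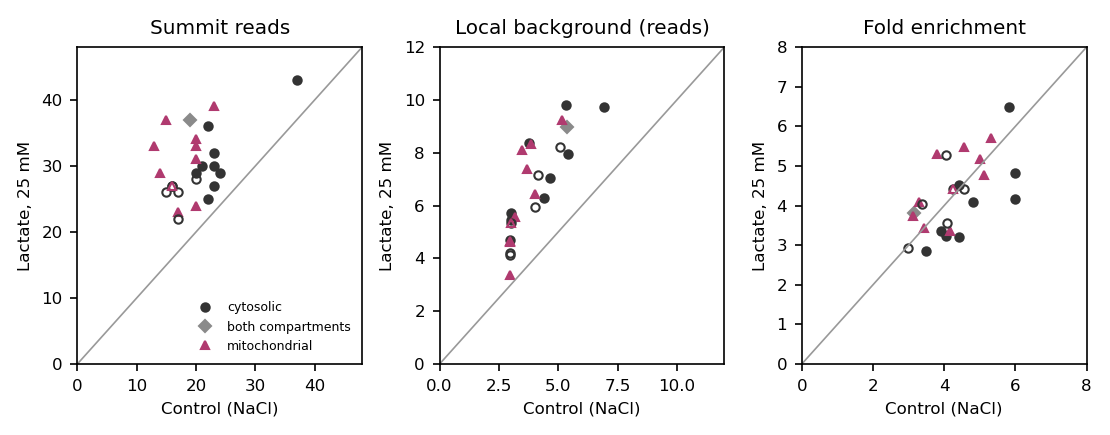
Summit reads, local background in reads and fold enrichment of 26 synthetase genes called in both libraries, control on the horizontal and lactate on the vertical axis, with the line of equality; filled marks are 19 genes read at the promoter start and open marks 7 genes read at a gene end. Reads and local background lie above the line for all 26, of which Sars and Vars compare different places, while fold falls on both sides of it.

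Peaks inside the genes, away from the gene-end windows, were found at 19 of 36 members in the control and 15 with lactate, beside 28.7% and 31.2% of all genes. These counts include the promoter-start peaks of Aars, Eprs and Tars2 in both libraries, of Wars2 in the control and of Aars2 with lactate, which lie inside the annotated gene. Both libraries had such a peak at 12 members (22.1% of all genes) and neither at 14 (62.2%). The control alone had such a peak at 7 (6.52%) and the lactate list alone at 3 (9.10%). These counts go by gene and not by place. At Aars2, Cars2, Fars2, Lars and Wars2 the inside peaks of the libraries lay at different places. The inside control peak of Sars, counted as control alone, lay within a lactate peak counted at its gene end. Tars2, the mitochondrial threonyl enzyme, had 20 control reads (12.2 to 30.9; fold 4.17, −log10 q 5.08) at chromosome 3, 95754677 to 95754969, and 24 lactate reads (15.4 to 35.7; fold 3.36, −log10 q 4.47) at 95754458 to 95754973. Iars2, the mitochondrial isoleucyl enzyme, had an inside peak of 27 control and 28 lactate reads 9910 and 9934 bp from its start, higher in the control than its start peak of 20 reads. Pars2, the mitochondrial prolyl enzyme and after Mars2 the shortest of the 36 genes, had no peak at its ends or inside it in either library.

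Genes that work with the synthetases were read in the same way. Of 18 aminoacylation partners, 16 were called at a gene end in both libraries (28.6% of all genes) and 2 in the lactate list alone (16.2%). Those 2 were Eef1e1, a small subunit of the multisynthetase complex, with 15 reads (8.40 to 24.7), and Mtfmt, which formylates the mitochondrial initiator tRNA, with 13 reads (6.92 to 22.2). Tarsl2, a second cytosolic threonyl enzyme outside the naming rule, had 20 control reads and 30 lactate reads, with folds of 5.31 and 6.92. Pstk, a kinase in the making of selenocysteine tRNA, had 15 and 27 reads, with folds of 4.04 and 6.42.

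Of 16 genes of the amino acid response, both libraries called 8 (28.6% of all genes), the lactate list alone 2 (16.2%) and neither library 6 (51.9%). Asns, asparagine synthetase and a standard ATF4 target, had 33 control reads (22.7 to 46.3) and 44 lactate reads (32.0 to 59.1). Eif2ak4, which encodes the GCN2 kinase that senses uncharged tRNA, had 16 and 26 reads. Slc3a2, the heavy chain of amino acid transporters, had 21 lactate reads (13.0 to 32.1) and Nupr1, a stress-induced nuclear protein, 20 lactate reads (12.2 to 30.9), with no control peak at either. Ddit3, Slc7a11, Slc7a5, Phgdh, Shmt2 and Vldlr had no gene-end peak, though Slc7a11 had a peak of both libraries at its promoter start.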

How the data were processed

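H4K12la CUT&Tag libraries of Neuro2a cells given NaCl (control) or 25 mM lactate, 1 each, were grouped by the labelled treatment, and read in pairs of 150 bases according to the labels. BWA, deepTools and MACS2 were used with build mm10, per the submitters' processing notes; no source used here gives versions, settings or a control library. The authors deposited 1 peak list per library. The deposited fold is the ratio of summit pileup to local background, −log10 p and −log10 q were deposited for each summit, and the score column, also deposited, is the −log10 q multiplied by 10 and cut to a whole number. These are the authors' values.

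The 6 mitochondrial lines of each list were left out. Summit reads and local background were solved from fold and −log10 p by the MACS2 formulas, to within 0.001 for 46591 of 46592 control and 39768 of 39768 lactate peaks, and the steps were tested on simulated data. A gene was called where a peak overlapped by at least 1 bp the window of 1 kb at either end in a RefSeq table of GRCm38.p6. The peak with the highest fold stood for the gene. Counts have exact Poisson 95% intervals, which cover counting error only. Promoter starts and strands came from a RefSeq promoter table, whose sequences run on the strand of the gene.

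The members and lists were chosen with earlier results of these data known. The rule named every member (1 member and 1 marker gene, kept in all counts, are not reported here by name), with full values for Aars, Aars2, genes called in 1 library alone, the 5 highest folds per library and genes with inside peaks alone, and up to 4 genes of each pathway list. Alternatives were stricter thresholds, equal list lengths, other windows and criteria, Lars2 added, other classes for Gars and Kars, and other peaks standing for a gene. Python 3.11.15, numpy 2.4.6, pandas 2.3.3, scipy 1.17.1 and matplotlib 3.10.9 were used.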

Additional observations from a re-analysis of the deposited data

How the results depend on the processing

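Of 62 values recomputed under the alternatives, 52 stayed within 1.5 times the reported count or within its interval. Some of the 52 could not move. The share of a class is unchanged when Gars and Kars join the other class, and equal list lengths leave the shorter lactate list whole. Most of the values that moved further did so under the stricter thresholds. With peaks kept only from a −log10 q of 5, 10 synthetase genes were called in the control, 8 in both libraries, 15 in the lactate list alone and 2, Sars and Yars, in the control alone. With a limit of 10, 0 were called in the control (0.959% of all genes) and 0 in both. With lactate 5 were called (5.13%), all 5 in that list alone. These 5 had control peaks below the stricter threshold. With windows of 3 kb, 4 genes remained in the lactate list alone: Cars, Mars2, Sars2 and Vars2. When the peak also had to touch the annotated gene, 1 gene, Aars, was called in the control alone. The lactate list alone held more genes than the control list alone in all 11 settings, but which genes these were changed with the window. Over all genes at gene ends the lactate list alone also held more, 16.2% against 3.34% in the control alone. Shares over all genes in 1 list alone are not given for the stricter thresholds or the 3 kb window. A window at either gene end or any promoter start was added after seeing the data. It called 27 genes in the control (34.5% of all genes) and 35 with lactate (48%). With 1 library per group, no alternative could leave out a replicate. Depth limits calls: no summit under 11 reads was called, and more reads were needed where the local background was higher.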

Other observations

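Many mitochondrial synthetase genes shared their gene-end peak with a neighbour. In the lactate library the best gene-end peak also lay within 1 kb of an end of another protein-coding gene for 8 of 13 called mitochondrial genes and 5 of 17 called cytosolic genes, beside 26.8% of all called genes. In the control it did so for 5 of 8 and 5 of 15 genes, beside 26.4%. The neighbours of the mitochondrial genes included Lyrm4 at Fars2, Orc3 at Rars2, Ubfd1 at Ears2, Bpnt1 at Iars2, Gtf2h4 at Vars2, Mrps12 at Sars2 and Hars at Hars2. Lyrm4 takes part in iron-sulfur cluster assembly, Orc3 in replication origin recognition and Gtf2h4 in transcription and repair. At such a peak the summit reads cannot be assigned to either gene. Each of these counts is a description of 2 libraries and was not tested.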
